A study of Mus musculus with 2 samples.

Results

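The general transcription machinery was examined through the genomic regions listed near its genes in a STARR-seq experiment on activated mouse T helper 1 (Th1) cells. A region was included when its nearest protein-coding transcription start (GENCODE M21, basic set) lay within 100 kb and belonged to a gene whose symbol begins with Polr, Gtf2, Gtf3 or Supt, or with Med, Taf or Ints and a digit. This gave 107 of the 14994 listed regions. They belonged to 81 of the 127 genes that carry such a symbol. Of the regions, 25 lay near RNA polymerase genes, 25 near Mediator genes, 24 near TAF genes, 11 near Integrator genes, 17 near basal factor genes and 5 near Supt genes.

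STARR-seq carries genomic fragments on an episome, here by transient transfection, and reads how strongly each fragment raises its own transcript. There was 1 group, made of 2 output libraries from biological replicates of C57BL/6NJ primary cells, and both carry the same donor identifier in the labels. Both were treated with interleukin-2, interleukin-12 p70 and an antibody to interleukin-4 for 4 days, and with antibodies to CD3e and CD28 for 3 days. The doses read from the labels were 10 ng/mL for each interleukin (replicate 1), 0.25 ug/mL for anti-CD3e (both replicates), and 1 ug/mL for anti-CD28 and 2 ug/mL for anti-interleukin-4 (replicate 2). Sex and age were not recorded, and the samples used here include no untreated cells. The reporter table holds no expression levels, so the cell type label could not be checked against marker genes.

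Each region has 1 signed effect with its raw and adjusted p in the authors' deposited table. The table was made from both libraries together, so there is no spread between replicates, the depth is unknown, and no test between families was possible. Intervals below cover counting error over regions or genes only. The scale and direction of the effect are not stated, and a positive effect is read here as more reporter RNA than input. All listed regions have an adjusted p of at most 0.01, so a gene without a listed region may hold a region that was tested and missed this threshold.

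RNA polymerases I, II and III make ribosomal RNA, messenger RNA and small RNAs such as transfer RNA. At Pol II promoters the basal factors place the enzyme on DNA, TFIID (TBP with its TAF proteins) recognises the core promoter, and Mediator passes signals from enhancer-bound factors to the polymerase. Integrator cuts nascent RNA and ends transcription by paused Pol II, and the Supt proteins act in elongation or in the SAGA coactivator. T cells enlarge and divide after activation and need large amounts of RNA.

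The promoter sequences at the top and the bottom of the effect range in each of the 4 main families are given first because they differ visibly in base composition. Among promoter regions base composition went with the sign of the effect, as described later. The printed stretches were picked by effect and cut short, so they illustrate that pattern and do not measure it. They come from each family's promoter regions with the highest and the lowest effect. The Polr3k distal region, with the lowest effect of all 107, was added after its value was seen. Each is a stretch of at most 220 bases outside annotated exons, read from GRCm38 (mm10), 5′ to 3′ on the strand of its gene, and the effect beside it is that of the whole region. Capitals mark matches to the consensus sequences described later, on either strand: CCGGAAG (ETS), CCAAT (NFY), TGACGTCA (CRE), AAGATGGC (YY1), GCATGCGC (NRF1), ACTACAATT (ZNF143), GGGCGGG (SP), TATAAA (the TATA box consensus) and CACGTG (E-box).
Polr2g promoter region, effect 2.86, chr19:8798578-8798797, - strand: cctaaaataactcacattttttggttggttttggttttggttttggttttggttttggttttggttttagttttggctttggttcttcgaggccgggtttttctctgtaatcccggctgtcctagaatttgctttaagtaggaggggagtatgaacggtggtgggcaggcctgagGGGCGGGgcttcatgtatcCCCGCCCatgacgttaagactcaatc
Polr2m promoter region, effect -0.67, chr9:71485464-71485683, - strand: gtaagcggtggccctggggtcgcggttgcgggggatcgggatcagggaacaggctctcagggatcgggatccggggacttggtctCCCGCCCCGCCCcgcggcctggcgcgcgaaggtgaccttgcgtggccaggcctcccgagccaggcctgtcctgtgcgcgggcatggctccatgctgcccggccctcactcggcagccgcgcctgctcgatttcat
Med11 promoter region, effect 1.20, chr11:70451776-70451918, + strand: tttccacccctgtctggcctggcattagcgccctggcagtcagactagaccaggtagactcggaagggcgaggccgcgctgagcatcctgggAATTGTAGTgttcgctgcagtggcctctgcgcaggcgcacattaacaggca
Med13l promoter region, effect -1.64, chr5:118560156-118560375, + strand: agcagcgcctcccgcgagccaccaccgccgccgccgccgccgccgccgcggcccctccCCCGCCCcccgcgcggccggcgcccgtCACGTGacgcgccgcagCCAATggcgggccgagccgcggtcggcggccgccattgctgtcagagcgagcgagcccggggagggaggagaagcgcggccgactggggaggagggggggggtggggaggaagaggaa
Taf1b promoter region, effect 1.33, chr12:24498650-24498869, + strand: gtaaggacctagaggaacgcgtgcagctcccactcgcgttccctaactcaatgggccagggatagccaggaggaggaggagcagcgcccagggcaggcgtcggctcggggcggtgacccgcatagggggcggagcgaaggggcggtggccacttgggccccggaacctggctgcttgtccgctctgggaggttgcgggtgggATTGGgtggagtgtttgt
Taf4 promoter region, effect -1.44, chr2:179976647-179976852, - strand: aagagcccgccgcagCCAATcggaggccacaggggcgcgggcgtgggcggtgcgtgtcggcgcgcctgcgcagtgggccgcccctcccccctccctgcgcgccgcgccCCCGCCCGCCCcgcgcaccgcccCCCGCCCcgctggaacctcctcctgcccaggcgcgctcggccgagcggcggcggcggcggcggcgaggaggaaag
Ints6 promoter region, effect 1.24, chr14:62761113-62761332, - strand: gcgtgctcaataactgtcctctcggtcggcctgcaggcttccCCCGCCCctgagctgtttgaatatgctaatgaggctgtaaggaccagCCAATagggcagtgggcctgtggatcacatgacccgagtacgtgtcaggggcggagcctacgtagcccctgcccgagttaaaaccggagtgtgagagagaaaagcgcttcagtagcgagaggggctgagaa
Ints6 promoter region, effect -0.62, chr14:62760351-62760425, - strand: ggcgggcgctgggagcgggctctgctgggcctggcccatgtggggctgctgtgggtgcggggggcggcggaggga
Polr3k distal region, effect -2.70, chr2:181918001-181918220, + strand: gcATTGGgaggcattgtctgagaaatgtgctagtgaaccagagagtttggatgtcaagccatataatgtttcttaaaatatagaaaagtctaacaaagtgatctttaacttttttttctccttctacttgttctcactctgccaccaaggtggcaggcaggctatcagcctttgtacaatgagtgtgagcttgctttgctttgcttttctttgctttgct

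The Polr2g stretch had a GC content of 46.4%, long runs of T and G, 7 CpG dinucleotides and a pair of SP matches. The negative stretches of Polr2m, Med13l and Taf4 had GC contents of 71.8%, 80.9% and 83.0% and held 23, 36 and 35 CpG. The positive stretches of Med11, Taf1b and the larger Ints6 region lay between, at 60.8%, 67.3% and 58.2% GC, with 8, 16 and 12 CpG. The effects belong to the whole regions, whose GC contents were 61.3% for Med11, 60.6% for Taf1b and 69.0% for the larger Ints6 region. Those of the negative Polr2m, Med13l and Taf4 regions were 66.1%, 76.9% and 72.9%. As a whole region, the positive Ints6 one thus had a higher GC content than the negative Polr2m one. Both Ints6 regions lie at 1 promoter: the positive one covers the start, and the negative one is 75 bp of an intron with a GC content of 80.0%. The Polr3k stretch differed from the negative promoters, with 40.0% GC and no CpG.

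Genes of the transcription machinery often had a listed region. At least 1 was given to 81 of 127 genes, or 63.8% (95% Wilson interval 55.1% to 71.6%), beside 43.0% of all 21827 protein-coding genes. A region centred within 1 kb of the gene's own start was found for 75 genes (59.1%, interval 50.4% to 67.2%), beside 30.1% of all protein-coding genes. Both background shares lay below the intervals. By family, 21 of 30 Mediator genes (70.0%), 20 of 29 RNA polymerase genes (69.0%), 15 of 23 TAF genes (65.2%), 14 of 23 basal factor genes (60.9%), 4 of 7 Supt genes (57.1%) and 7 of 15 Integrator genes (46.7%) had a region. Differences between families were not tested. Counts of genes with a region in the smaller groups below stand against the same 43.0%, and many of those groups hold few genes.

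Of the 81 genes, 60 had 1 region, 16 had 2 and 5 had 3 (Polr3k, Taf3, Taf4, Taf8 and Ints6l). For 6 genes the regions were distal only. Among the 46 genes with none, 7 had a listed region at their start that was given to a nearer neighbour, and 39 had none there. The 7 were Gtf2f1 (effect 1.26, given to Gm17949), Gtf2h1 (0.60, Hps5), Ints11 (0.92, Cptp), Ints7 (1.11, Dtl), Med20 (0.79, Bysl), Polr2b (0.79, Noa1) and Supt6 (0.82, Sdf2). All 7 effects were positive, beside 75.1% of all listed promoter regions.

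Most regions were positive. A positive effect was listed for 91 of 107 regions, or 85.0% (interval 77.1% to 90.6%), beside 80.7% of all listed regions. The interval includes the background share. Promoter regions, centred within 1 kb of a start of any gene type, were positive in 67 of 78 cases (85.9%, interval 76.5% to 91.9%), beside 75.1% of all listed promoter regions. All 78 were centred within 1 kb of the start of the protein-coding gene they were given to. Of the 7849 listed promoter regions 7147 were, so the promoter background is a more mixed set. Distal regions were positive in 24 of 29 cases (82.8%), beside 86.9% of all listed distal regions. Counts of positive regions in the smaller groups below stand against these same shares.

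Most effects lay close together, in a list cut at an adjusted p of 0.01 that holds no effect between -0.43 and 0.37. In the authors' deposited table their median was 0.76 (order-statistic interval 0.70 to 0.80), beside 0.73 over all listed regions, and the middle of the distribution ran from 0.62 to 0.89, beside 0.56 to 0.96. Positive members had a median of 0.79 and negative members one of -1.15, beside 0.80 and -1.07 over all listed regions. An effect above 1 was found in 18 members (16.8%, beside 22.8%), and an effect above 2 in 2 (1.87%, beside 5.52%). Promoters made up 72.9% of the member regions and 52.4% of all listed regions.

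The medians of the 4 families lay between 0.72 and 0.79. The median effect was 0.72 (0.66 to 0.83) for RNA polymerases, 0.77 (0.63 to 0.82) for Mediator, 0.76 (0.66 to 0.90) for TAF genes and 0.79 (0.58 to 1.24) for Integrator. These intervals overlap one another. The positive share was 88.0% for RNA polymerases and for Mediator (22 of 25 each, interval 70.0% to 95.8%), 79.2% for TAF genes (19 of 24, 59.5% to 90.8%) and 90.9% for Integrator (10 of 11, 62.3% to 98.4%). At promoters alone the counts of positive and negative regions were 18 and 1 for RNA polymerases, 17 and 3 for Mediator, 12 and 4 for TAF genes and 7 and 1 for Integrator. TAF genes thus held 4 of the 11 negative member promoters, but 2 of the 4 are Taf5 regions 50 bp apart. The families' counts were not compared by a test.

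**Figure D1:**
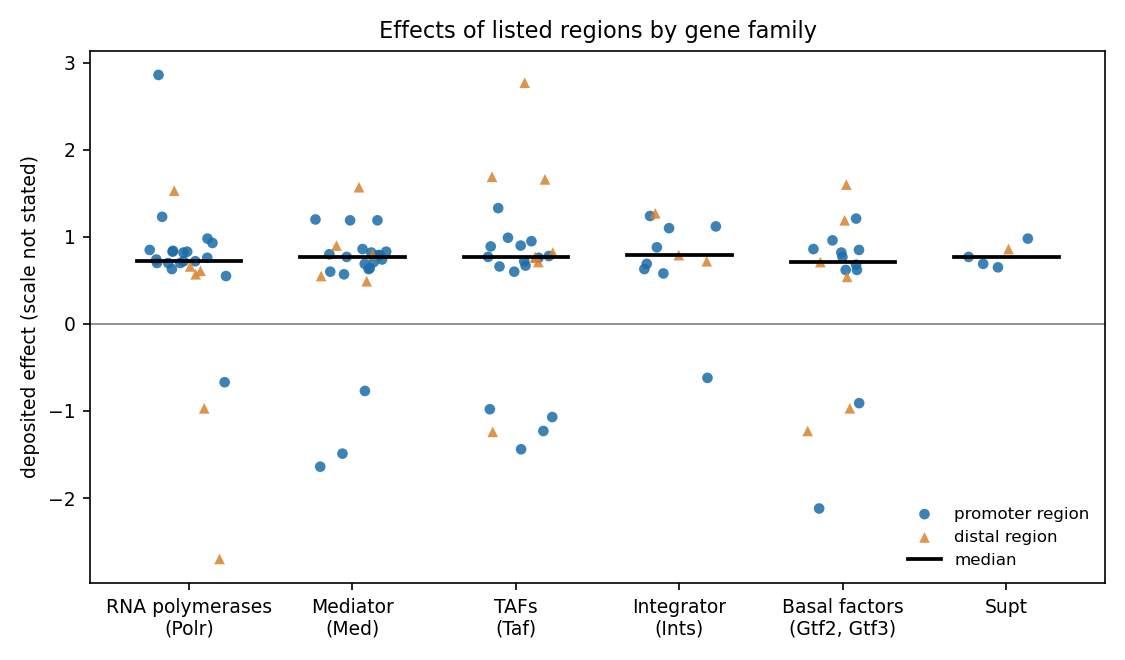
Deposited effect (vertical axis, scale not stated) of each of the 107 regions by gene family, with promoter regions as circles, distal regions as triangles and the family median as a bar. The medians lie between 0.71 and 0.79, and the points away from the main band are single regions such as Polr2g at 2.86 and Polr3k at -2.70.

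RNA polymerase II showed 1 region far above the rest. Polr2g, which encodes a subunit of the stalk that projects from the enzyme, stood at 2.86 in the authors' deposited table, with 2.12e-11 as its adjusted p (chr19:8798476-8798950, centred 136 bp upstream of the start, GC 48.0%). Of the 7849 listed promoter regions 134 were higher, and of the 7432 that were single-copy and not mostly repeat 13 were higher. Interspersed or simple repeats masked 30.7% of this region, and the part played by the repeat was not tested. Polr2d, its partner in the stalk, had the next highest polymerase promoter at 1.23 (chr18:31788751-31789425, adjusted p 2.98e-08, GC 58.1%). Both stalk subunits were thus above the family median of 0.72.

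The other Pol II subunits formed a narrow band. Polr2a, the catalytic subunit that carries the C-terminal repeat domain, had 2 regions 100 bp apart, with effects of 0.70 (chr11:69757951-69758350, centred in a coding exon, adjusted p 1.87e-05) and 0.72 (chr11:69758451-69759625, just upstream, adjusted p 2.76e-04). Polr2c and Polr2j, the pair on which the enzyme is assembled, had promoter effects of 0.83 (chr8:94857326-94858150, adjusted p 2.98e-04) and 0.98 (chr5:136116301-136117050, adjusted p 3.37e-05). Polr2i, which supports proofreading, had a promoter effect of 0.82 (chr7:30231526-30232400, adjusted p 4.07e-05). Distal regions of Polr2i (chr7:30216676-30217100, 15.1 kb away) and Polr2j (chr5:136102001-136102725, 14.3 kb away, in an exon of Rasa4) were lower, at 0.66 and 0.57.

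Of the 5 subunits shared by all 3 polymerases, Polr2f had an effect of 0.76 (chr15:79140976-79141800, adjusted p 6.19e-04) and Polr2h one of 0.70 (chr16:20717126-20718100, adjusted p 0.00876), while Polr2e, Polr2k and Polr2l had no listed region. Polr2m was the 1 negative polymerase promoter. It encodes Gdown1, a Pol II-associated protein that makes the enzyme dependent on Mediator, and its region (chr9:71485326-71486100, adjusted p 0.00251, GC 66.1%) had an effect of -0.67. In all, 9 of 13 Polr2 genes had 12 regions, 11 of them positive.

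The Polr1 genes had promoter regions only, and the Polr3 genes had distal ones as well. All 4 Polr1 regions were positive and close to one another: Polr1a, the catalytic subunit, had an effect of 0.74, Polr1b 0.70, Polr1e 0.72, and Polr1d, shared with Pol III, 0.93 (chr5:147076176-147077625, adjusted p 1.46e-05). The Polr1a region was a 150 bp stretch of intron centred 0.965 kb from the start (chr6:71909951-71910100), where the others covered the start. The 5 Polr3 promoters were positive as well. Polr3a, the catalytic subunit, had 0.63, Polr3f 0.83, Polr3gl 0.85 and Polr3k, which takes part in termination, 0.84.

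Distal Polr3 regions spread over a wide range. Polr3k had a positive one at 1.53, 14.8 kb from its start (chr2:181878951-181879400, adjusted p 0.00136, GC 41.3%), and a negative one at -2.70, 53.8 kb away in intergenic sequence (chr2:181918001-181918300, adjusted p 5.02e-04, GC 38.0%). Of 7124 listed distal regions 7 were lower than this. Polr3b, the second largest subunit, had an effect of 0.61 within its own coding exon, 24.6 kb from the start. Polr3e had a single region, 30.5 kb from its start, with an effect of -0.97 (chr7:120947876-120948675, adjusted p 0.00715, GC 45.5%). Polrmt, which encodes the mitochondrial enzyme, had no listed region.

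Mediator genes were followed by module. The head, which contacts Pol II, had regions at 4 of 7 genes, all positive: Med6 0.74, Med17 0.80, Med22 0.82 and Med11 1.20 (chr11:70451776-70452475, adjusted p 7.31e-08, GC 61.3%). The middle module had regions at 8 of 9 genes, and all 12 were positive, from 0.55 to 1.57. Med1, the subunit that binds nuclear receptors, had a promoter effect of 1.19 (chr11:98192726-98193675, adjusted p 2.33e-07) and an intronic effect of 1.57 over 100 bp (chr11:98182501-98182600, adjusted p 0.00137). The intronic region consisted wholly of masked repeat and had no alignment of the required identity, so its copy number is unknown.

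Med31 had a promoter effect of 1.19 (chr11:72214726-72215725, adjusted p 5.60e-07) like that of Med1. Med4, Med7, Med10, Med21 and Med26, the last of which joins Mediator to elongation factors, lay between 0.71 and 0.86 at their promoters, and Med9 was lower at 0.57 (chr11:59947826-59948650, adjusted p 0.00659). The distal region of Med7 was at 0.55 (chr11:46431051-46431500, adjusted p 0.00298), and that of Med21, 32.7 kb from its start, at 0.90. The tail, which many activators contact, had 5 positive regions at 5 of 9 genes, from 0.49 to 0.83. At their promoters Med16, Med24, Med25 and Med27 were at 0.83, 0.64, 0.60 and 0.69. The lowest was in an exon of Med29 (chr7:28386601-28386750, adjusted p 0.00810, GC 58.0%); the start of Med29 also held a listed region, at 0.74, which was given to Paf1.

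The negative Mediator regions were at the backbone and the kinase module. Med14, the backbone that ties the modules together, had an effect of -0.77 (chrX:12761576-12762600, adjusted p 0.00191, GC 67.7%). In the kinase module, which can hold Mediator away from Pol II, Med12 was positive at 0.63 (chrX:101273576-101274525, adjusted p 0.00481, GC 58.8%). Med12l was negative at -1.49 (chr3:59005526-59007400, adjusted p 1.54e-05, GC 71.8%), as was Med13l at -1.64 (chr5:118559701-118560375, adjusted p 2.73e-08, GC 76.9%). Med13 had no listed region. The negative kinase module genes are therefore the paralogs whose names end in l, and they have 2 of the 3 negative Mediator regions.

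TAF genes were followed by complex. The SL1 factors, which with TBP recruit Pol I to ribosomal DNA, had regions at 4 of 4 genes, all positive: Taf1a 0.66, Taf1c 0.90, Taf1d 0.99 and Taf1b 1.33 (chr12:24498276-24499075, adjusted p 3.71e-08, GC 60.6%). A second Taf1b region, 36.0 kb away in intergenic sequence, had an effect of 1.66 (chr12:24462201-24462425, adjusted p 7.63e-05). Its central 300 bp had 2 copies in the genome, the only member called multi-copy. TFIID genes had regions at 8 of 16 genes, 12 positive and 4 negative. The SAGA paralogs were split, with Taf6l at 0.67 and Taf5l at -1.07 (chr8:124020426-124021025, adjusted p 4.77e-06, GC 61.5%), and Taf15, which encodes an RNA-binding protein of the FET family, was at 0.95.

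Within TFIID, Taf3, which reads methylated histone H3, had the highest TAF effect. A 175 bp intronic region, 38.9 kb upstream of the nearest annotated Taf3 start, was at 2.77 (chr2:9992426-9992600, adjusted p 2.79e-07). Another, 125 bp from it, was at 1.69 (chr2:9992726-9993000, adjusted p 1.17e-06). Masked repeats made up 96.6% and 72.0% of these 2 regions. The Taf3 promoter region lies at a different annotated start, 54700 bp from the second of them. With 3.02% masked, it was at 0.89 (chr2:10047701-10048825, adjusted p 7.93e-05). What the repeats contribute to the higher effects was not tested. Taf8 had 3 positive regions at 0.76 (promoter, chr17:47501851-47502450), 0.71 (chr17:47482376-47482700) and 0.82 (chr17:47473501-47474025). Taf10, shared with SAGA, was at 0.60, Taf7 at 0.72 and Taf13 at 0.77.

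The negative TFIID regions were at Taf4, Taf4b and Taf5. Taf4, a scaffold subunit, had a negative promoter at -1.44 (chr2:179976426-179977300, adjusted p 2.32e-07, GC 72.9%). This region covers the Taf4 start, and its centre lies in a non-coding exon of 4921531C22Rik, 10 bp from the start of that gene. Taf4 also had a pair of positive intronic regions at 0.77 (chr2:179974851-179974975) and 0.76 (chr2:179975001-179975350), 25 bp apart and within 1.73 kb of its start. Taf4b, its paralog known from germ cells and lymphocytes, had the reverse: a promoter at 0.78 (chr18:14782876-14783900, adjusted p 5.04e-04, GC 67.6%) and an intronic region 64.4 kb downstream at -1.24 (chr18:14847376-14847925, adjusted p 6.43e-04, GC 33.6%). Taf5, which holds TFIID's histone-fold proteins together, had 2 negative regions 50 bp apart. A 100 bp stretch of a coding exon was at -1.23 (chr19:47067926-47068025, adjusted p 4.32e-08, GC 87.0%) and the adjoining intron at -0.98 (chr19:47068076-47068850, adjusted p 1.92e-04, GC 62.6%).

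For Integrator, 7 of 15 genes had a region (46.7%), near the 43.0% of all protein-coding genes, and Ints7 and Ints11 had one at their start that was given to a neighbour. Ints6 had the highest promoter effect of the family, 1.24 (chr14:62760801-62761775, adjusted p 4.32e-08, GC 69.0%), and 375 bp downstream the negative intronic region at -0.62 (chr14:62760351-62760425, adjusted p 0.00308). Ints8 was at 1.12 (chr4:11253651-11254425, adjusted p 8.54e-06) and Ints13 at 1.10. Ints3, which is also part of a DNA repair complex, was at 0.88, Ints2 at 0.69 and Ints1, the large scaffold subunit, at 0.63 (chr5:139775276-139776050, adjusted p 0.00356). Ints6l had 3 positive regions: 0.58 at its promoter (chrX:56454701-56455000, adjusted p 0.00644), 0.79 (chrX:56456651-56456725) and 0.72 (chrX:56480926-56481250).

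A distal Ints2 region at 1.27 lay 34.8 kb from its start within the body of Med13, and 88.0% of it was masked repeat (chr11:86292276-86292475, adjusted p 0.00222). Ints9 and Ints11 form the RNA-cutting module: Ints9 had no listed region, and the region at the Ints11 start was given to Cptp. Ints4, which binds both of them, had none either. None of these 3 genes therefore had a region of its own, and the 1 at the shared Ints11 start had an effect of 0.92.

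**Figure D2:**
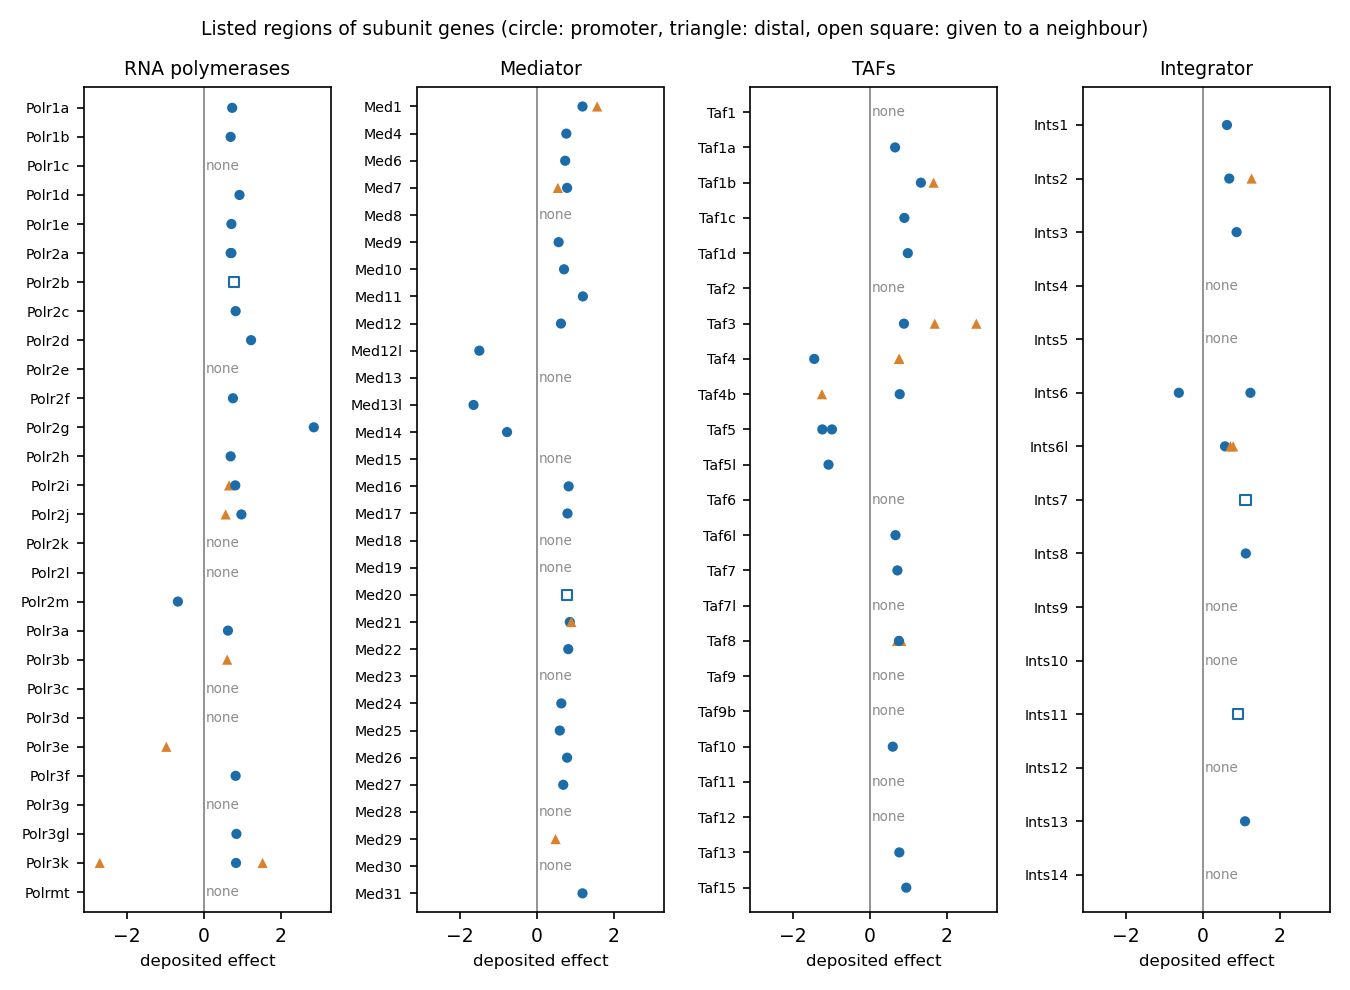
Deposited effect (horizontal axis, scale not stated) of the listed regions of the RNA polymerase, Mediator, TAF and Integrator genes, apart from 1 polymerase gene and 1 distal Mediator region that are not shown; circles are promoter regions, triangles distal regions, open squares a region at the start of a gene without one of its own that was given to a nearer neighbour, and "none" a gene with neither. Negative points stand at single genes such as Med12l, Med13l, Taf4, Taf5 and Taf5l rather than along a whole family.

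The lowest promoter fell in the basal factor group, which was set by the symbols Gtf2 and Gtf3 and not by function. Gtf2ird1, which encodes a TFII-I-related DNA-binding protein, had an effect of -2.12 (chr5:134456501-134457000, adjusted p 1.90e-08, GC 67.2%), while its relative Gtf2ird2 was at 0.77. Gtf2i itself had only distal regions, at 1.19 over 50 bp (chr5:134345601-134345650, adjusted p 1.14e-05) and at 0.54 (chr5:134350551-134351050, adjusted p 0.00956). For TFIIA, which steadies TBP on DNA, Gtf2a1 was negative at -0.91 (chr12:91589726-91590650, adjusted p 1.57e-05, GC 67.9%). Gtf2a2 was positive at its promoter (0.85) and negative in an intron 6.48 kb away (-1.23, chr9:70018976-70019125, adjusted p 0.00581, GC 39.3%). The germ cell paralog Gtf2a1l had regions at 1.60 (chr17:88658401-88659175, adjusted p 7.11e-08) and 0.71, both in an intron of Ston1.

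Gtf2b, the gene of TFIIB, was at 0.62. For TFIIE, which brings TFIIH to the promoter, Gtf2e1 was at 0.96, and Gtf2e2 had only a distal region at -0.97 (chr8:33721876-33722525, adjusted p 0.00443, GC 40.8%). For TFIIH, which opens promoter DNA, Gtf2h3 was at 1.21 (chr5:124578751-124579550, adjusted p 1.96e-05) and Gtf2h4 at 0.68. The Pol III factors Gtf3a, Gtf3c1 and Gtf3c5 were at 0.86, 0.82 and 0.62 (Gtf3c5, chr2:28582476-28583425, adjusted p 0.00477). All 5 Supt regions were positive, beside 80.7% of all listed regions. Supt4a and Supt5, the partners in the elongation factor DSIF, had promoter effects of 0.77 and 0.69 (chr7:28338301-28339100, adjusted p 0.00105), and a second Supt4a region was at 0.86 (chr11:87744976-87745300, adjusted p 6.20e-06). The SAGA genes Supt20 and Supt3 were at 0.98 (chr3:54692376-54693325, adjusted p 3.15e-06) and 0.65 (chr17:44776701-44777750, adjusted p 0.00288).

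Some further paralogs, picked after their values were seen, were set side by side. Ints6 was at 1.24 at its start and Ints6l at 0.58, Polr3gl was at 0.85 where Polr3g had no region, and Taf6l had a region where Taf6 had none. Taf5 and Taf5l were both negative. Taf9, Taf9b and Taf7l had none.

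Member promoter regions lay close to the start. Of 78, 73 spanned their own gene's start (93.6%), beside 84.8% of the 7147 listed regions centred within 1 kb of the start of the gene they were given to. The median distance from centre to start was 58.8 bp, beside 118 bp, and 44 regions (56.4%) were centred within 100 bp, beside 44.6%. A start on the opposite strand lay within 1 kb of 10 of 78 member promoters (12.8%), beside 10.2%, and all 10 were positive, beside 88.1% of the 731 listed regions with such a start. The 5 that did not cover their start included the short negative regions of Ints6 and Taf5.

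**Figure D3:**
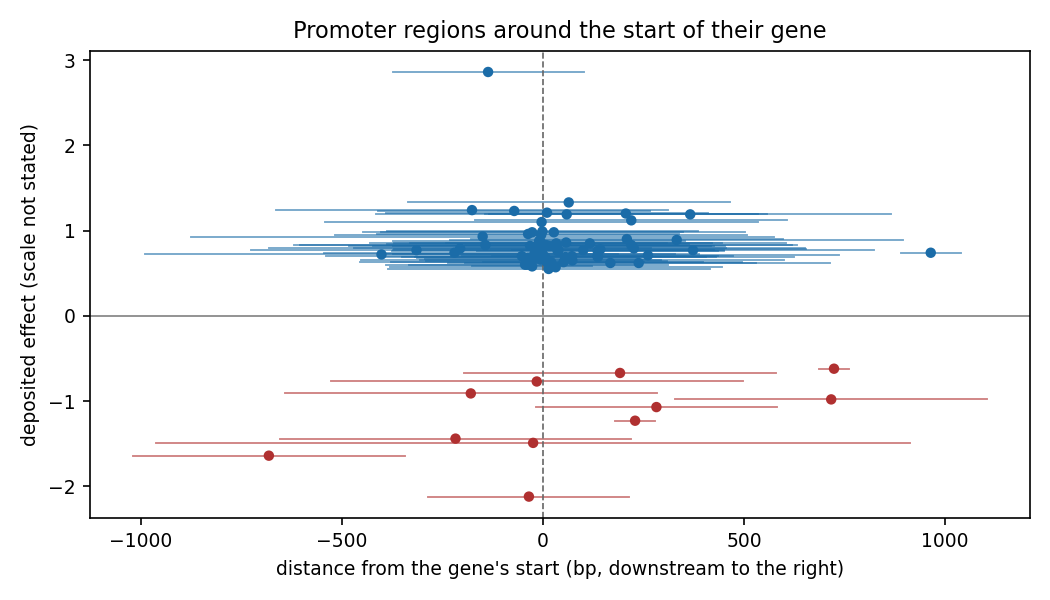
Position of the 78 promoter regions relative to their gene's start (horizontal axis in bp, downstream to the right) against the deposited effect (vertical axis); lines show the extent and points the centre, blue for positive and red for negative effects. Of the 78 lines, 73 cross the start, and Polr2g stands alone at 2.86.

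Among promoters the sign of the effect went with GC content. Positive member promoters had a median GC content of 60.1% (range 44.7% to 69.0%) and negative ones 67.9% (61.5% to 87.0%). Below 65% GC, 58 of 60 member promoters were positive, beside 93.1% of the 5066 listed promoters in that range. At 65% or more, 9 of 18 were positive, beside 42.1% of 2783, and at 70% or more 0 of 5, beside 15.9%. The member counts thus run near the shares of all listed promoters of like GC content. The 2 negative promoters below 65% were the intronic region of Taf5 and that of Taf5l.

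By family, the median promoter GC content was 60.1% for RNA polymerases, 61.0% for Mediator, 61.5% for TAF genes and 63.2% for Integrator. Of the RNA polymerase promoters 18 of 19 lay below 65% GC, and all 18 were positive; the other was Polr2m. Mediator had 15 promoters below 65%, all positive, and 5 above, of which 3 were negative. At high GC content 3 of 4 Integrator promoters and 2 of 4 TAF promoters were positive. Distal regions showed the opposite order: positive ones had a median GC content of 51.7% and negative ones 39.3%. Below 45% GC 4 of 9 distal members were negative, beside 39.9% of all listed distal regions in that range. The part of base composition in the measured sign, biological or technical, was not tested.

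**Figure D4:**
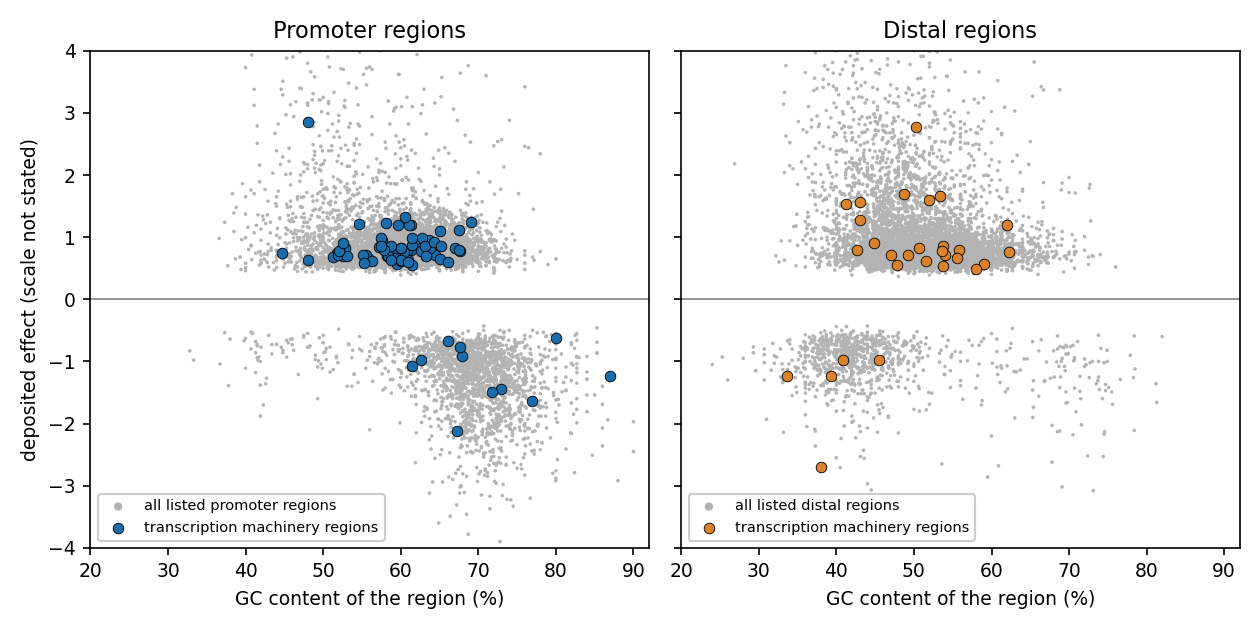
Deposited effect (vertical axis, scale not stated) against GC content (horizontal axis, %) for promoter regions (left) and distal regions (right), with transcription machinery regions in colour over all listed regions in grey; 162 listed regions beyond an effect of 4 in either direction are outside the axes. Negative transcription machinery promoters lie from 61.5% to 87.0% GC and negative distal ones from 33.6% to 45.5%, while the negative regions among all those listed spread more widely.

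The central 300 bp of each region were searched for the 9 consensus sequences listed above, on both strands, and none of the 9 contains another. Matches capitalised in the printed stretches but lying outside this window, such as that of ZNF143 at Med11, are not counted. For regions narrower than 300 bp, which were 3 of 78 member promoters (Ints6, Polr1a and Taf5) and 9.73% of all listed promoters, this window takes in flanking sequence. A match is a description of the sequence, not a binding site. The NRF1 consensus was found in 9 of 78 member promoters (11.5%, interval 6.19% to 20.5%), beside 3.91% of all listed promoters, and the ETS consensus in 18 (23.1%, 15.1% to 33.6%), beside 14.5%. Both background shares lay below the intervals. The 9 with NRF1 were at Med4, Med17, Med27, Polr2a, Polr2j, Supt3, Supt4a, Taf1a and Gtf3a, and all 9 were positive, beside 86.6% of the 307 listed promoters with that consensus. Of the 18 with ETS 17 were positive, beside 85.9% of 1142. Both counts are near these shares. NRF1 is a factor known for promoters of genes for mitochondrial function and growth.

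ZNF143 matches were found at 2 promoters (Med24 and Gtf2h4, 2.56%), beside 0.395% of all listed promoters. YY1 matches were found at 7 (8.97%), beside 4.92%, and E-box matches at 7 (8.97%), beside 8.24%. NFY matches were found at 30 (38.5%), beside 32.5%; by family these were 57.9% of RNA polymerase promoters (11 of 19, interval 36.3% to 76.9%), 4 of 8 Integrator promoters, 5 of 20 Mediator promoters and 4 of 16 TAF promoters. SP matches were found at 38 (48.7%), beside 45.3%. They were found at 9 of the 11 negative member promoters (81.8%, interval 52.3% to 94.9%), beside 58.6% of all negative listed promoters, a share within that interval. One of the 9 is the 75 bp Ints6 region, whose own bases hold no SP match, so that its match lies in the flanking sequence. The CRE consensus was found once, at Med31 (1.28%, beside 2.78%), and TATA at Med7 and Taf13 (2.56%, beside 4.03%). The intervals of the shares for NFY, SP, YY1, E-box, CRE and TATA include the share of all listed promoters.

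**Figure D5:**
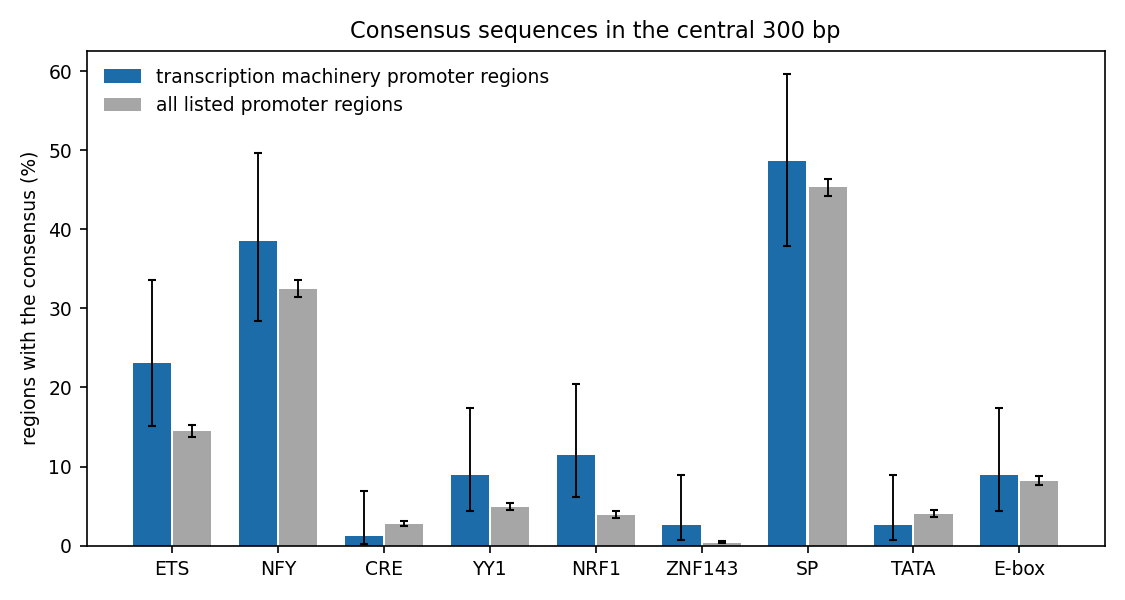
Share of promoter regions (vertical axis, %) with each consensus sequence in the central 300 bp, for the 78 transcription machinery promoters in blue and all 7849 listed promoters in grey, with 95% Wilson intervals as bars. NRF1 and ETS stand at 11.5% and 23.1% in the transcription machinery, beside 3.91% and 14.5%.

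Partner genes whose symbols fall outside the rule were described in the same way. Of 53 such genes 36 (67.9%) had a region, beside 43.0% of all protein-coding genes. Of their 49 regions 37 were positive (75.5%), beside 80.7% of all listed regions. Their median effect was 0.73, the same as over all listed regions. The TFIIH partners Ercc3 and Ercc2, its helicases, had promoter effects of 1.35 and 1.23, and the kinase Cdk7 one of 0.81; a region given to the cyclin gene Ccnh, far from its start but within 1 kb of another annotated start, was at 4.76. All 5 Pol III partner regions were positive, beside 80.7% of all listed regions. Ubtf, which keeps ribosomal DNA open for Pol I, had 3 negative regions (-1.09, -0.81 and -0.59), while Rrn3, Znrd1 and Twistnb were at 0.84, 0.77 and 0.73.

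Of the Mediator kinases, Cdk8 was negative at -1.05 and its paralog Cdk19 positive at 0.66 at the promoter. Cdk9, the kinase that releases paused Pol II, had 2 negative regions at -2.04 and -0.81, while its cyclins Ccnt1 and Ccnt2 were at 0.98 and 0.87. Among 23 pause and elongation genes 16 had 20 regions, 16 of them positive (80.0%, beside 80.7% of all listed regions). The Integrator partners Nabp1, Nabp2 and Inip had 4 positive regions, all within 1 kb of an annotated start, and 4 negative ones. The negative ones were all distal, with GC contents from 40.7% to 41.4%. None of the 3 TBP family genes was given a listed region. For partner genes, regions at their start that were given to a nearer neighbour are not counted here.

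Regions near the distance limit were few. The 3 farthest inside it were a Taf3 region at 39.2 kb (1.69), a Polr3k region at 53.8 kb (-2.70) and a Taf4b region at 64.4 kb (-1.24). Another 4 regions lay outside, the nearest being those of Med27 at 111 kb (0.55), Med30 at 135 kb (-0.66) and Med13l at 147 kb (0.53).

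Repeats touched few members. Masked repeats made up more than 50% of 5 regions (4.67%, beside 5.84% of all listed regions). All 5 were positive, beside 80.7% of all listed regions. Without these and the multi-copy region, 101 regions remained, with a median effect of 0.74.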

How the data were processed

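STARR-seq output libraries from 2 biological replicates of activated mouse Th1 cells were used, each from 30 ug of nucleic acid with a size range of 200 to 400 bp, per the labels. One table of regions, made on mm10 from the 2 libraries' alignments together per the file headers, was the source of every value. Its main column is a signed effect, deposited as a score with scale, log base and direction unstated. Raw p-values and adjusted ones (q-values) were deposited beside it. The region's width is a further deposited column. The aligner, caller, test and normalization were not given in the sources used here. With the libraries combined there is no replicate spread, and depth is unknown, so a region's precision is known only through the deposited p-value. The input library and signal tracks were not used here.

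The members and lists were chosen with earlier results of these data known. Starts came from GENCODE M21 and sequence from GRCm38, the build of the deposited coordinates. The 14973 regions on chromosomes 1 to 19, X and Y were used and 21 on other scaffolds left out. Distances run from a region's centre. A promoter region was centred within 1 kb of a start of any gene type, coding or not, and other regions were called distal. Copies were counted by aligning the central 300 bp in minimap2 2.31 (settings k = 19, w = 10, N = 50 and p = 0.5), where a copy was a match of at least 95% identity over at least 240 bp. Counts, medians and Wilson intervals were computed with Python 3.11.15, pysam 0.24.0, pandas 2.3.3, numpy 2.4.6 and scipy 1.17.1, and checked on simulated data. No set test was run. The member p-values ran up to 0.00124 in the deposited table.

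All members could be named. Positions and adjusted p-values were given for the 3 highest and 3 lowest regions of each family, all negative regions, genes with 3 regions and the Pol II subunits, in part in short form. Other genes came from lists of partner factors. Alternatives were an adjusted p under 0.001, an absolute effect of at least 1, gene distances of 20 kb and 1 kb, the nearest start of any gene type, any member start within 1 kb, merging of regions under 500 bp apart, and leaving out multi-copy regions or regions with over 50% masked sequence. One polymerase gene and 1 Mediator region are counted but not reported singly here.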

Additional observations from a re-analysis of the deposited data

How the results depend on the processing

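Of 64 comparisons of a result with an alternative, 54 stayed within 1.5 times the count or within the interval, 10 moved and 0 reversed. An adjusted p under 0.001 left 70 regions (65.4%, beside 60.6% of all listed regions), 46.5% of genes with a region and a median effect of 0.82. An absolute effect of at least 1 left 27 regions, 18.1% of genes and a positive share of 66.7%. Matching shares over all protein-coding genes, or over all listed regions at the absolute-effect cut, are not given here. These values therefore describe no trait of the members alone. Over all listed regions the median was -1.07 for negative and 0.80 for positive effects. Under the absolute-effect cut the median became 1.19 for all members, 1.38 for RNA polymerases, 1.19 for Mediator and 0.13 for TAF genes, because only the tails of the distribution remain. The Integrator median, 1.18, stayed within its interval under that alternative. Depth is unknown, so what it limits cannot be stated. No paired analysis was possible because both replicates were combined into 1 deposited value per region, and replicates could not be left out in turn for the same reason.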
